A study of Mus musculus with 8 samples.

Results

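The 9 genes described here govern how glucose and lactate enter a pancreatic alpha cell and how glucose is phosphorylated and dephosphorylated inside it. They were chosen by symbol, as glucose transporters (Slc2a1, Slc2a2, Slc2a3), a sodium-coupled glucose transporter (Slc5a1), a lactate and pyruvate transporter (Slc16a1), a hexokinase (Hk1), a glucokinase regulator (Gckr) and catalytic subunits of glucose-6-phosphatase (G6pc2, G6pc3), and all 9 were found among the 75078 gene IDs of the table. Messenger RNA had been measured by poly(A)-selected, strand-specific sequencing in αTC1-6, an established mouse cell line with alpha cell identity. Of 8 libraries, 4 came from cells transfected with a plasmid that overexpresses Yy1 (sample numbers 45 to 48) and 4 from cells transfected with an empty plasmid (sample numbers 31 to 34). Plasmid was added 24 h after the cells had been seeded, in a DMEM medium whose label reads 11 mM, and no harvest time is given in the labels used here. The cells are 1 immortal line, and a count per gene does not separate transcripts of the plasmid from those of the cells' own Yy1. Nothing in the labels says that the samples of a group were separate cultures. The spread behind each p-value is thus that between samples and may be technical only.

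Glucose crosses the plasma membrane through facilitative carriers of the SLC2 (GLUT) family or, against its gradient, through sodium-coupled carriers of the SLC5 family. Inside the cell hexokinases trap it as glucose 6-phosphate, the first step of glycolysis, and glucose-6-phosphatase can reverse that step. Lactate and pyruvate cross the membrane through monocarboxylate transporters of the SLC16 family. In rodent islets the low-affinity carrier GLUT2, encoded by Slc2a2, is the glucose transporter of beta cells, and beta cells keep Slc16a1 and Hk1 low.

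YY1 is a zinc finger factor that binds promoters, and RefSeq promoter windows of 300 bases (build GRCm38.p6, from 250 bases before the annotated start to 50 after it) were held for 8 of the 9 genes, in 10 windows. The 10 windows were searched on both strands for letters of the known YY1 motif, ATGGCG and CCATNTT. No window was held for Slc2a3, so its promoter was not searched. The letters ATGGCG stood in 8.93% of all 32851 promoter windows of that length and CCATNTT in 16.1%, and in 2.38% of windows a match of each overlapped. Among these 8 genes only Slc2a1 held ATGGCG, and only Slc2a1 and Slc2a2 held CCATNTT. Those windows are shown because they belong to the carriers whose searched promoters hold the letters. Matches are in capitals, and each window is read along its gene's strand.
Slc2a1, chr4:119108495-119108794, plus strand: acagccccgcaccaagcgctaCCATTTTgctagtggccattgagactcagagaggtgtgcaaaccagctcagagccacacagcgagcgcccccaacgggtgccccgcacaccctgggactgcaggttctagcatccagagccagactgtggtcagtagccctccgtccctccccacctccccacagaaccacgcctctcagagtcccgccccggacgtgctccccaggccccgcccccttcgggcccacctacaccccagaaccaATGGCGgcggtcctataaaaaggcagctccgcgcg
Slc2a2, chr3:28697653-28697952, plus strand: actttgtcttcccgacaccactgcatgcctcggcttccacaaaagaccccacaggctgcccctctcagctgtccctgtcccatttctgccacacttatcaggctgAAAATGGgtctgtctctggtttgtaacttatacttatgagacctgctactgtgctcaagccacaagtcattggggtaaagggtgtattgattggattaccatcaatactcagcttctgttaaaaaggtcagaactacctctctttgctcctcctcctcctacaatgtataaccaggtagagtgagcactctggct
In the Slc2a1 window ATGGCG began 15 bases after the annotated start and CCATNTT began 229 bases before it, and the matches did not overlap. In the Slc2a2 window CCATNTT lay on the opposite strand. A match is a description of these letters and not a binding site.

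The summed counts ran between 29680177 and 33347445 in libraries with the Yy1 plasmid, against 20679804 to 30570601 in those with the empty plasmid. Yy1 stood at 5233 ± 464 CPM (counts scaled to a library of 1e+06) with the Yy1 plasmid and at 175 ± 5.33 CPM with the empty plasmid (SD, n = 4 each). Of 10 alpha cell markers, 9 averaged at least 1 CPM, led by Gcg, which encodes proglucagon, at 21290 ± 372 CPM with the Yy1 plasmid and 21230 ± 547 CPM with the empty plasmid (SD, n = 4 each), and Gc had no count. Of 8 beta cell markers, which include Slc2a2 of the set, only Nkx6-1 averaged at least 1 CPM, and Ins1, Ins2 and Ucn3 had no count in any library. Of 3 delta cell markers only Rbp4 averaged at least 1 CPM, at 1737 CPM with the Yy1 plasmid and 1685 CPM with the empty plasmid. Of 15916 genes that passed the filter on low counts, edgeR's quasi-likelihood test called 82 at an adjusted p under 0.05, or 0.515%, and 862 genes, or 5.42%, had an unadjusted p under 0.05. The libraries of the groups did not overlap for 3.95% of the tested genes.

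The high-affinity carriers made up nearly all of the transcript of the 3 GLUT genes, and Slc2a2 was close to absent. Hk1 was the most abundant hexokinase transcript per kilobase, and G6pc2, G6pc3 and Slc16a1 were all well expressed. Slc5a1 and Gckr had almost no counts. No gene of the set that was tested was called between the plasmids. Of the 6 that passed the filter, 0 were called by edgeR, by DESeq2 or by limma-voom, 0 had an unadjusted p under 0.05 with edgeR, and 0 had groups that did not overlap. The shares over all tested genes were 0.515%, 5.42% and 3.95%. All 6 had an absolute log2 fold change under 0.2, which held for 83.4% of tested genes, and 4 had one under 0.1, which held for 68.8%. Their median log2 fold change was -0.030, beside -0.0025 over all tested genes.

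**Figure D1:**
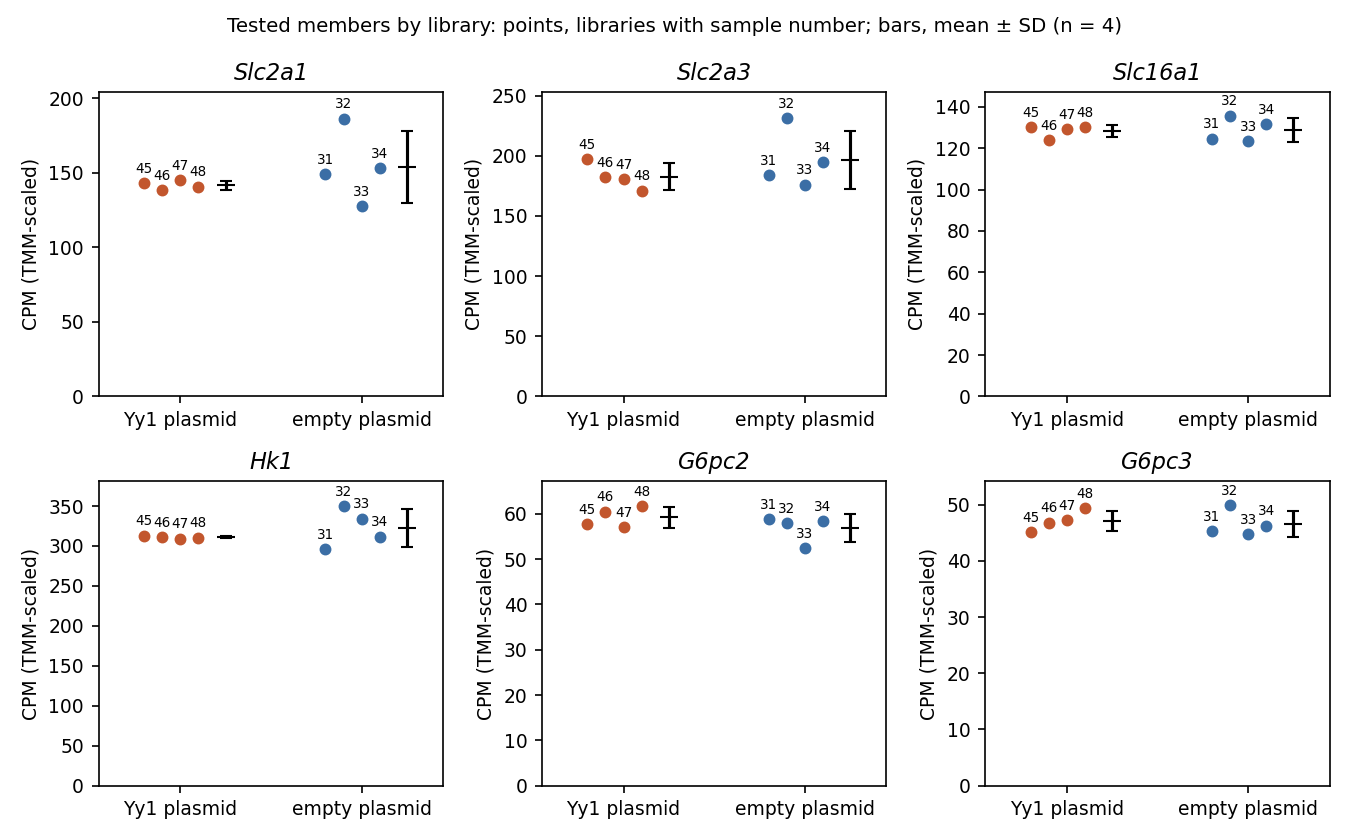
TMM-scaled CPM of the 6 tested genes in each library, with the Yy1 plasmid on the left and the empty plasmid on the right of each panel. Points are libraries with their sample numbers and bars are mean ± SD (n = 4 each). The groups overlap in every panel, and Slc2a1 and Slc2a3 have their highest point, 186 and 231 CPM, in empty plasmid 32.

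Slc2a1 (ENSMUSG00000028645) encodes GLUT1, a high-affinity glucose carrier found in most cells. It had 143, 138, 145 and 141 CPM in Yy1 plasmid 45, 46, 47 and 48, against 149, 186, 128 and 153 CPM in empty plasmid 31, 32, 33 and 34. The Yy1 plasmid libraries lay close together and inside the range of the empty plasmid libraries, in which 32 was highest and 33 lowest. The means were 142 ± 2.95 CPM with the Yy1 plasmid and 154 ± 24.2 CPM with the empty plasmid (SD, n = 4 each). The log2 fold change was -0.12 (SE 0.103), the fold change 0.92 with a 95% interval from 0.778 to 1.09, and the adjusted p of edgeR's quasi-likelihood test 0.986. The exact permutation test gave a two-sided p of 0.486. The coefficient of variation was 2.08% with the Yy1 plasmid and 15.7% with the empty plasmid. Over the 6384 genes with an average log2 CPM of at least 5 its median was 3.37% with the Yy1 plasmid and 4.74% with the empty plasmid, and 98.9% of them varied less than Slc2a1 among the empty plasmid libraries.

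Slc2a3 (ENSMUSG00000003153) encodes GLUT3, a carrier of still higher affinity known best from neurons. It had 197, 182, 181 and 171 CPM in Yy1 plasmid 45 to 48, against 184, 231, 176 and 194 CPM in empty plasmid 31 to 34. As for Slc2a1, empty plasmid 32 stood above every other library, and the remaining 7 were mixed. The means were 183 ± 10.9 CPM with the Yy1 plasmid and 196 ± 24.4 CPM with the empty plasmid (SD, n = 4 each). The log2 fold change was -0.10, with an SE of 0.0826 (edgeR adjusted p = 0.98). The 95% interval of the fold change ran from 0.817 to 1.06, and the two-sided exact permutation p was 0.4. Its estimated counts were not whole (tolerance 0.001) in 8 of 8 libraries, so reads shared with transcripts of other genes had been divided, and its level is less certain than that of Slc2a1, whose counts were whole in all 8.

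Slc2a2 (ENSMUSG00000027690), the GLUT2 gene whose promoter is printed above, was below the filter. It had 0, 5, 8 and 3 counts in Yy1 plasmid 45 to 48, against 7, 4, 1 and 1 in empty plasmid 31 to 34. Summed over each group this was 16 counts or 0.126 CPM (exact Poisson 95% interval 0.0718 to 0.204) with the Yy1 plasmid, and 13 counts or 0.123 CPM (0.0655 to 0.21) with the empty plasmid. The ratio was 1.02, with an exact conditional interval from 0.461 to 2.31. These intervals cover counting error only, and a change within them was not detectable at this depth.

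Slc5a1 (ENSMUSG00000011034) encodes SGLT1, which carries glucose together with sodium and is best known from the intestine. It had 7, 1, 4 and 1 counts in Yy1 plasmid 45 to 48, against 0, 0, 0 and 2 in empty plasmid 31 to 34. Every Yy1 plasmid library thus held a count and 1 of 4 empty plasmid libraries did, but the groups overlapped. The sums of 13 and 2 counts stood for 0.102 CPM with the Yy1 plasmid and 0.0189 CPM with the empty plasmid, a ratio of 5.39 with an exact conditional 95% interval from 1.22 to 49.2 for counting error alone. The empty plasmid sum lay under 3 counts, the limit that a count of 0 allows (0.0284 CPM for the pooled libraries). The ratio thus rests on a level not told apart from no count, and 7 of the 13 counts came from Yy1 plasmid 45. Over libraries the two-sided exact permutation p was 0.171. With no filter on low counts edgeR gave Slc5a1 a log2 difference of 2.19 (SE 1.23; adjusted p = 0.736).

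Slc16a1 (ENSMUSG00000032902) encodes MCT1, which moves lactate and pyruvate with a proton in either direction. It had 130, 124, 129 and 130 CPM in Yy1 plasmid 45 to 48, against 125, 136, 123 and 132 CPM in empty plasmid 31 to 34. The libraries of the groups were interleaved. The means were 128 ± 3.03 CPM with the Yy1 plasmid and 129 ± 5.85 CPM with the empty plasmid (SD, n = 4 each). Slc16a1 had the smallest difference of the 6 tested genes, at -0.0056 on the log2 scale with an SE of 0.0412 (edgeR adjusted p = 0.997), with a 95% interval of the fold change from 0.939 to 1.06. The sign of this value turned with upper-quartile scaling.

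Hk1 (ENSMUSG00000037012) encodes a hexokinase with high affinity for glucose. It had 313, 311, 309 and 311 CPM in Yy1 plasmid 45 to 48, against 296, 350, 334 and 312 CPM in empty plasmid 31 to 34. The Yy1 plasmid libraries lay between 309 and 313 CPM, and those with the empty plasmid lay both below and above them. The means were 311 ± 1.53 CPM with the Yy1 plasmid and 323 ± 23.8 CPM with the empty plasmid (SD, n = 4 each). The log2 fold change was -0.054 (SE 0.0451; edgeR adjusted p = 0.98), the 95% interval of the fold change ran from 0.903 to 1.03, and the two-sided exact permutation p was 0.343. An antisense gene, Hk1os, overlaps exons of Hk1. It had 24 to 64 counts per library, where Hk1 had 6815 to 10276, and the strand setting of the counting is not given in the sources used here.

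Gckr (ENSMUSG00000059434) encodes the glucokinase regulatory protein, an inhibitor best known from liver. It had 1, 0, 0 and 1 counts in Yy1 plasmid 45 to 48 and no count in any of the 4 empty plasmid libraries. Both groups lay at or under 3 counts, the limit that a count of 0 allows, so no fold change is given. For the pooled empty plasmid libraries that limit was 0.0284 CPM.

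G6pc2 (ENSMUSG00000005232) encodes the islet form of the glucose-6-phosphatase catalytic subunit. It had 57.7, 60.5, 57.0 and 61.8 CPM in Yy1 plasmid 45 to 48, against 58.8, 57.9, 52.4 and 58.4 CPM in empty plasmid 31 to 34. Yy1 plasmid 46 and 48 stood above all libraries with the empty plasmid, 45 and 47 did not, and empty plasmid 33 was lowest. The means were 59.2 ± 2.26 CPM with the Yy1 plasmid and 56.9 ± 3.03 CPM with the empty plasmid (SD, n = 4 each). The log2 fold change was 0.056, with an SE of 0.0471 (edgeR adjusted p = 0.98). The 95% interval of the fold change ran from 0.972 to 1.11, and the two-sided exact permutation p was 0.286.

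G6pc3 (ENSMUSG00000034793), the catalytic subunit found in most tissues, had 45.1, 46.8, 47.3 and 49.4 CPM in Yy1 plasmid 45 to 48, against 45.3, 49.9, 44.7 and 46.2 CPM in empty plasmid 31 to 34. Its groups overlapped over nearly their whole range. The means were 47.2 ± 1.75 CPM with the Yy1 plasmid and 46.5 ± 2.32 CPM with the empty plasmid (SD, n = 4 each), and the log2 difference was 0.018 with an SE of 0.0484 (edgeR adjusted p = 0.997). The 95% interval of the fold change ran from 0.945 to 1.09.

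Levels of different genes were compared as CPM per kilobase of the longest annotated coding transcript. Hk1 was highest, at 72.7 ± 0.357 with the Yy1 plasmid and 75.5 ± 5.57 with the empty plasmid (SD, n = 4 each). Slc2a3 followed at 46.2 ± 2.75 with the Yy1 plasmid and 49.6 ± 6.17 with the empty plasmid, and Slc2a1 at 43.5 ± 0.904 with the Yy1 plasmid and 47.2 ± 7.42 with the empty plasmid. The ranges of these GLUT genes overlapped within each group, so their order is not resolved. Then came G6pc2 at 31.3 ± 1.19 with the Yy1 plasmid and 30.1 ± 1.6 with the empty plasmid, G6pc3 at 30.0 ± 1.11 with the Yy1 plasmid and 29.6 ± 1.47 with the empty plasmid, and Slc16a1 at 29.0 ± 0.684 with the Yy1 plasmid and 29.1 ± 1.32 with the empty plasmid. Among these last 3, genes next to each other in the order overlapped in both groups, while G6pc2 and Slc2a1 did not overlap in either. Slc5a1, Slc2a2 and Gckr all averaged below 0.025 CPM per kilobase in both groups. With the union of all annotated exons as length, Slc2a1 stood first at 40.4 with the Yy1 plasmid and 43.9 with the empty plasmid, ahead of Hk1 at 36.4 with the Yy1 plasmid and 37.9 with the empty plasmid, so the place of Hk1 rests on the transcript length. Slc2a3 then stood at 25.2 with the Yy1 plasmid and 27.1 with the empty plasmid, below G6pc2 and Slc16a1, so its place rests on that length as well. With the empty plasmid, however, the union ranges of Slc2a1 and Hk1 overlapped, as did those of Slc2a3 with G6pc2 and Slc16a1. The union order of these genes is thus not resolved in that group, while with the Yy1 plasmid these ranges did not overlap.

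By the longest coding transcript Slc2a1 made up 48.5 ± 1.42% of the summed Slc2a1, Slc2a2 and Slc2a3 level with the Yy1 plasmid and 48.7 ± 1.28% with the empty plasmid (SD, n = 4 each). G6pc2 made up 51.1 ± 0.756% of the summed G6pc2 and G6pc3 level with the Yy1 plasmid and 50.4 ± 1.38% with the empty plasmid. With the union of exons the share of Slc2a1 was 61.6 ± 1.34% with the Yy1 plasmid and 61.7 ± 1.21% with the empty plasmid, and with the planned median length 37.3 ± 1.33% with the Yy1 plasmid and 37.4 ± 1.2% with the empty plasmid. That median length proved to be that of partial models, at 665.5 bases for Slc2a1, 509.5 for Slc2a3 and 581 for Hk1. Which of the GLUT genes held more than the other thus depends on the length, while the groups overlapped with each length. The level of Hk1 over the G6pc2 and G6pc3 sum, the kinase against the phosphatase transcripts by the longest coding transcript, was 1.24, 1.18, 1.2 and 1.13 in Yy1 plasmid 45 to 48, against 1.16, 1.31, 1.39 and 1.21 in empty plasmid 31 to 34. The groups overlapped for this ratio. With the union of exons it lay below 1 in every library, at 0.681 to 0.741 with the Yy1 plasmid and 0.692 to 0.84 with the empty plasmid. Whether the kinase stood above the phosphatases thus depends on the length and is not settled by these counts. With the planned median length, that of a partial model for Hk1, the ratio was 7.97 to 8.69 with the Yy1 plasmid and 8.13 to 9.78 with the empty plasmid.

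**Figure D2:**
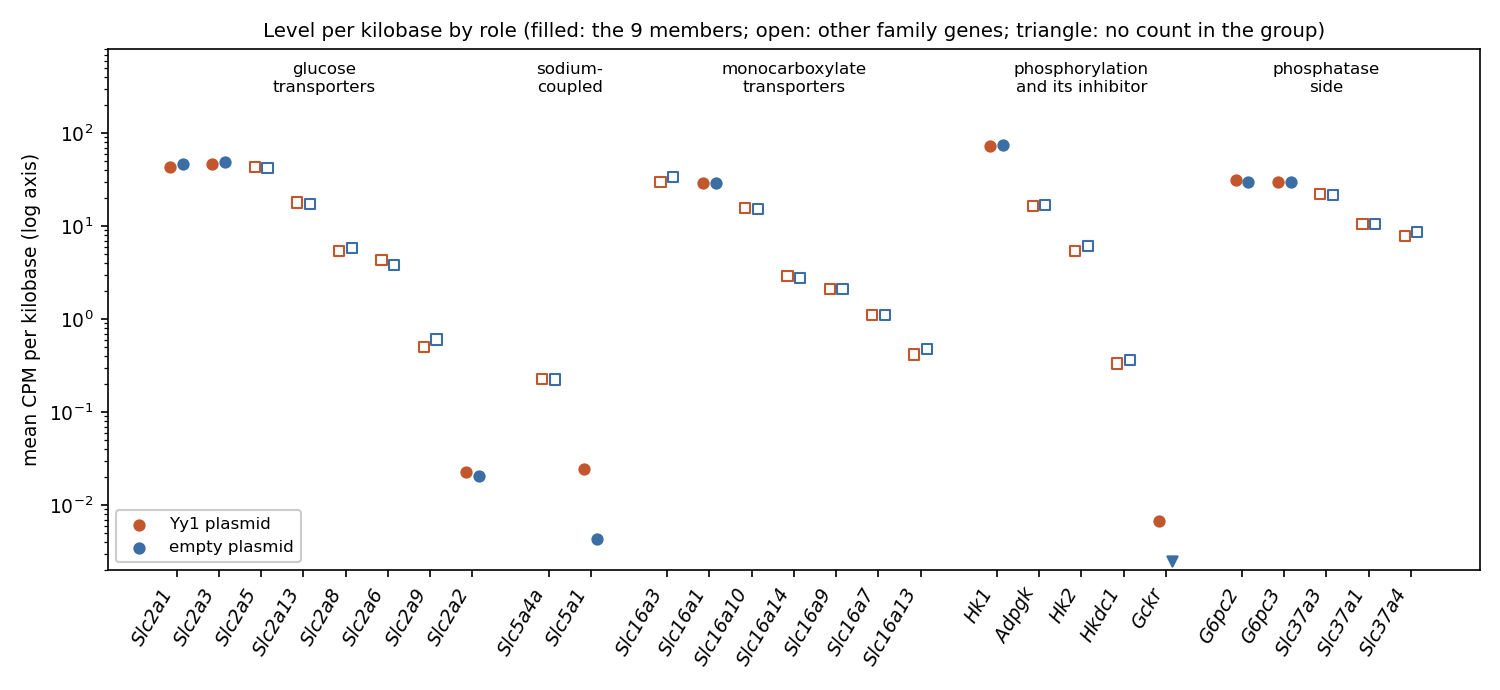
Mean CPM per kilobase of the longest coding transcript, on a log axis, by role. Filled circles are the 9 genes, open squares other genes of the same families that passed the filter, and the triangle a group with no count. Hk1 is highest, near 73 with the Yy1 plasmid, and Slc2a2, Slc5a1 and Gckr all lie below 0.025.

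Other genes of the pathway came from lists by role, of which up to 4 genes with the smallest p are named. Of the 6 tested GLUT paralogs and relatives 0 were called, 3 had positive and 3 negative log2 fold changes, and their median was 0.018, beside -0.0025 over all tested genes. Slc2a13, a proton-coupled inositol carrier, had 118 ± 1.21 CPM with the Yy1 plasmid and 113 ± 5.78 CPM with the empty plasmid (SD, n = 4 each; log2 fold change 0.061, SE 0.0417, edgeR adjusted p = 0.965). Slc2a6, Slc2a8 and Slc2a9 had log2 fold changes of 0.17 (SE 0.0941), -0.10 (SE 0.0865) and -0.26 (SE 0.193), at 1.83 to 12.2 CPM. Slc2a5, which encodes the fructose carrier GLUT5, was chosen for its level, with its values known. It stood at 137 ± 7.76 CPM with the Yy1 plasmid and 133 ± 2.05 CPM with the empty plasmid (SD, n = 4 each; log2 fold change 0.043, SE 0.0426, edgeR adjusted p = 0.992). Per kilobase its level was 43.4 ± 2.46 with the Yy1 plasmid and 42.1 ± 0.651 with the empty plasmid, close to that of Slc2a1. Of the 8 listed sodium-coupled paralogs only Slc5a4a passed the filter, at 0.469 CPM with the Yy1 plasmid and 0.461 CPM with the empty plasmid.

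Of 8 tested monocarboxylate transporters and chaperones 0 were called, 4 had positive and 4 negative log2 fold changes, and the median was 0.00015. Slc16a3 encodes MCT4, a lactate exporter of glycolytic cells. It had 138, 124, 126 and 128 CPM in Yy1 plasmid 45 to 48, against 148, 175, 128 and 138 CPM in empty plasmid 31 to 34 (log2 fold change -0.19, SE 0.0894, edgeR adjusted p = 0.928). Empty plasmid 32 was again highest and 33 lowest of its group, as for Slc2a1. The log2 fold change of Slc16a3 was -0.095 (SE 0.0506) without 32 and -0.25 (SE 0.0776) without 33. Bsg encodes basigin, the chaperone that brings MCT1 and MCT4 to the membrane. It had a log2 difference of -0.065 (SE 0.0403, edgeR adjusted p = 0.953) and stood at 1133 ± 28.0 CPM with the Yy1 plasmid and 1185 ± 37.4 CPM with the empty plasmid (SD, n = 4 each). Slc16a14 and Slc16a13 had log2 fold changes of 0.073 (SE 0.0829) and -0.20 (SE 0.24).

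Of 5 genes listed as partners in glucose phosphorylation 3 were tested, 0 were called, and all 3 had negative log2 fold changes with a median of -0.12, although Hkdc1 turned positive without empty plasmid 34. Hk2, a hexokinase that low oxygen can induce, had 30.6, 30.6, 28.8 and 29.0 CPM in Yy1 plasmid 45 to 48, against 32.4, 39.0, 29.9 and 33.7 CPM in empty plasmid 31 to 34. The groups overlapped through empty plasmid 33. Its log2 fold change was -0.19 (SE 0.0653; unadjusted p = 0.00972 and adjusted p = 0.56 of edgeR's quasi-likelihood test). Without empty plasmid 32 it was -0.11 (SE 0.0587; edgeR unadjusted p = 0.0768), and without empty plasmid 33 it was -0.23 (SE 0.0611; edgeR unadjusted p = 0.000785 and adjusted p = 0.111). Adpgk, an ADP-dependent glucokinase, had -0.059 (SE 0.046) and Hkdc1, a hexokinase-like gene, -0.12 (SE 0.242). Per kilobase Hk1 stood far above them all, with Adpgk at 16.4 ± 0.403 with the Yy1 plasmid and 17.1 ± 0.395 with the empty plasmid, and Hk2 at 5.39 ± 0.181 with the Yy1 plasmid and 6.12 ± 0.697 with the empty plasmid (SD, n = 4 each).

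Of 5 genes listed for the glucose-6-phosphatase system, which include family relatives of Slc37a4, 3 were tested and 0 were called. The median log2 fold change was 0.0017, the value of Slc37a1. Slc37a4, the transporter that brings glucose 6-phosphate to the phosphatase in the endoplasmic reticulum, had a log2 difference of -0.15 (SE 0.0762, edgeR adjusted p = 0.911), and Slc37a3 and Slc37a1 had 0.021 (SE 0.0442) and 0.0017 (SE 0.053, a value whose sign turned with library size alone). Of 5 tested genes of pyruvate and lactate handling 0 were called, with a median of 0.00068. Ldha, which encodes lactate dehydrogenase A, had -0.15 (SE 0.0597; edgeR adjusted p = 0.784), Mpc1 and Mpc2, the mitochondrial pyruvate carrier, had 0.064 (SE 0.0478) and -0.038 (SE 0.0739), and Ldhb had 0.022 (SE 0.0458). Of 5 tested glucose-responsive regulators 0 were called, with a median of 0.015. Txnip, which restrains glucose uptake and is induced by glucose, had 164 ± 3.73 CPM with the Yy1 plasmid and 156 ± 9.85 CPM with the empty plasmid (SD, n = 4 each; log2 fold change 0.068, SE 0.0437, edgeR adjusted p = 0.953). Mlxip, Mlx and Mlxipl, from the same list as Txnip, had 0.083 (SE 0.0519), -0.065 (SE 0.0467) and -0.12 (SE 0.116).

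**Figure D3:**
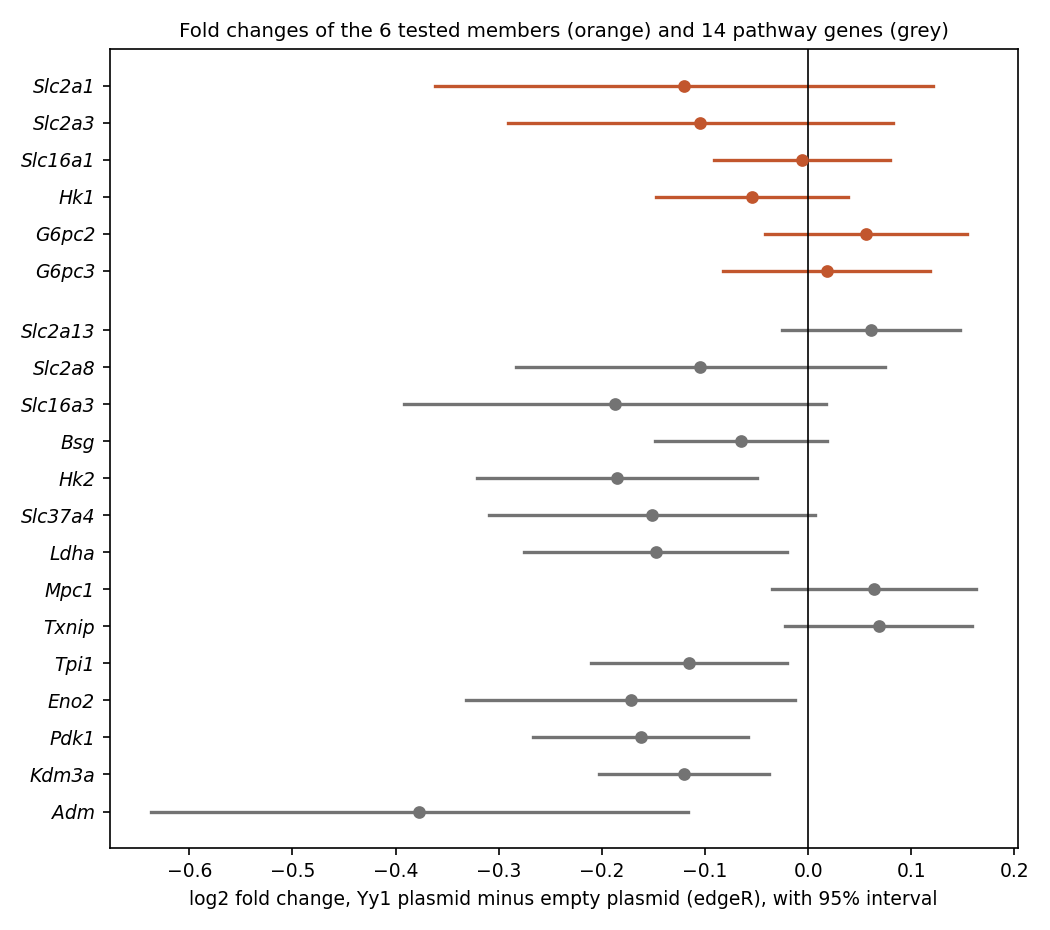
Log2 fold change, Yy1 plasmid minus empty plasmid, with its 95% interval from edgeR, for the 6 tested genes of the set (orange) and 14 other pathway genes (grey). The intervals of all 6 include 0, and those of Slc2a1 and Slc2a3 are the widest of the 6. The grey genes are a selection from those named in the text, most of them named for a small p. Genes with values of either sign, such as Slc2a6 and Pfkp, are left out, so the grey directions do not stand for the pathway.

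The genes after glucose 6-phosphate and those induced by low oxygen are the nearest comparisons. Of 13 tested glycolysis genes 0 were called, all 13 had negative log2 fold changes with a median of -0.085 (10 of 13 and -0.045 without empty plasmid 32), and 2 had an unadjusted p under 0.05, beside 2.19% of all tested genes in that direction. These were Tpi1, triosephosphate isomerase (-0.12, SE 0.0457), and Eno2, the neuronal enolase (-0.17, SE 0.0722), while Pgam1 and Pfkp had -0.091 (SE 0.0445) and -0.094 (SE 0.0467). Without empty plasmid 32 the 4 values were -0.077 for Tpi1, -0.086 for Eno2, -0.047 for Pgam1 and -0.049 for Pfkp, and 0 of the 13 had an unadjusted p under 0.05 (0.0933 for Tpi1 and 0.0656 for Eno2 with edgeR). Of 20 tested genes of the low-oxygen list, which leaves out the 9 genes but shares Hk2, Ldha and Slc16a3 with the lists above, 0 were called, 19 had negative log2 fold changes with a median of -0.13 (18 and -0.086 without empty plasmid 32), and 8 had an unadjusted p under 0.05 (3 without empty plasmid 32). Pdk1, a kinase that restrains pyruvate oxidation, had -0.16 (SE 0.0501), Kdm3a, a histone demethylase, -0.12 (SE 0.0396), and Adm, which encodes adrenomedullin, -0.38 (SE 0.121), with edgeR adjusted p values from 0.353 to 0.511. Without empty plasmid 32 these were -0.098 for Pdk1, -0.089 for Kdm3a and -0.22 for Adm. With another empty plasmid library left out, both medians moved the other way, the low-oxygen one by little without 31. The low-oxygen median, -0.135 with all libraries, was -0.138 without 31, -0.17 without 33 and -0.163 without 34. In that order 8, 11 and 11 of its genes were lower at an unadjusted edgeR p under 0.05. The glycolysis median was -0.0966, -0.0925 and -0.108, with 5, 5 and 8 such genes. The glycolysis values also depended on the Yy1 plasmid libraries. With 45, 46, 47 or 48 left out, in that order, its median was -0.0885, -0.0708, -0.085 and -0.0757, with 3, 0, 1 and 0 such genes. The low-oxygen median was then -0.152, -0.133, -0.132 and -0.124, with 8, 6, 8 and 7 such genes. The share of 2.19% over all tested genes holds for the fit with all libraries. It was not computed with a library left out, so how far those counts exceed it is not known. Without empty plasmid 33 Adm stood at -0.46 (edgeR adjusted p = 0.0536). The low-oxygen list was chosen with earlier results of the same libraries known and is no independent evidence of its direction.

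Slc2a1, Slc2a3 and Hk1 shared their highest library with the low-oxygen list. The mean log2 CPM of the list's 20 genes was 6.06, 6.00, 6.02 and 5.98 in Yy1 plasmid 45 to 48, against 6.13, 6.34, 6.06 and 6.08 in empty plasmid 31 to 34. Empty plasmid 32 was the highest library for the list and for Slc2a1, Slc2a3, Slc16a1, Hk1 and G6pc3, while G6pc2 was highest in Yy1 plasmid 48. Centred on the mean of the 8 libraries, empty plasmid 32 stood 0.34 above it for Slc2a1 and 0.29 for Slc2a3 on the log2 scale, beside 0.25 for the list, 0.15 for Hk1 and 0.08 for Slc16a1. Beyond that library Slc2a1, Slc2a3 and Hk1 did not follow the list throughout. In empty plasmid 31 the list stood at 0.05, Hk1 at -0.096, Slc2a3 at -0.038 and Slc2a1 at 0.019. In empty plasmid 33 the list stood at -0.028, Hk1 at 0.078, Slc2a1 at -0.20 and Slc2a3 at -0.10. With the Yy1 plasmid the list, Slc2a1 and Hk1 lay below the mean in every library. Slc2a3 stood at 0.064 in Yy1 plasmid 45, where the list stood at -0.024. Without empty plasmid 32 the log2 fold change was -0.017 (SE 0.0521) for Slc2a1, -0.017 (SE 0.0493) for Slc2a3 and -0.014 (SE 0.0439) for Hk1. Without empty plasmid 33, the lowest of its group for Slc2a1, the value for Slc2a1 was -0.20 (SE 0.0692; edgeR unadjusted p = 0.0175 and adjusted p = 0.548). Without empty plasmid 31, the lowest of its group for Hk1, the value for Hk1 was -0.096 (SE 0.0434; edgeR unadjusted p = 0.0388 and adjusted p = 0.86). The part of the low-oxygen genes in these differences was not tested.

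**Figure D4:**
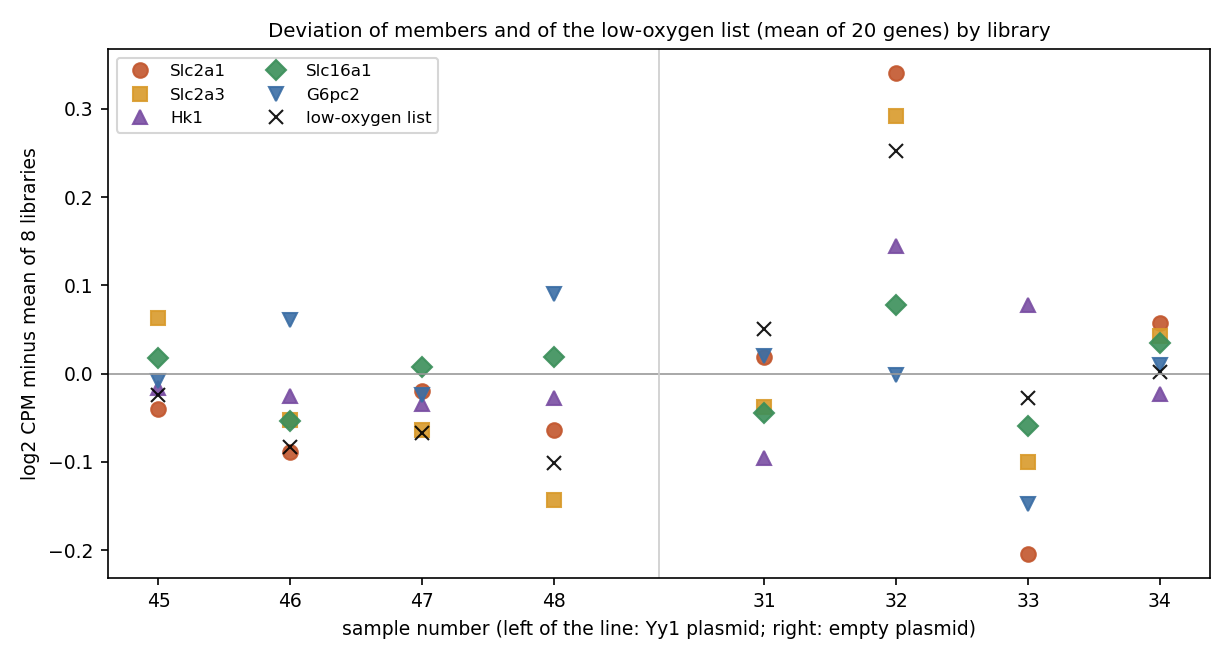
Log2 CPM minus the mean of the 8 libraries for 5 genes of the set and for the mean of 20 low-oxygen genes, by sample number, with the Yy1 plasmid left of the line. Empty plasmid 32 is the highest library for Slc2a1 at 0.34, for Slc2a3 at 0.29 and for the low-oxygen list at 0.25, while G6pc2 is near 0 there. Empty plasmid 33 is the lowest for Slc2a1 at -0.20 and for G6pc2 at -0.15.

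The gene profiles nearest to that of Slc2a3, the tested gene of the set with the smallest unadjusted p (0.237), were sought among 10367 other coding genes with an average log2 CPM of at least 2, by the root mean square difference of centred log2 CPM over the 8 libraries. They were Egln1, a prolyl hydroxylase that senses oxygen (0.0226), Eno2 (0.0426) and Ccng2, a cyclin G gene (0.043), where the median over all genes was 0.145. For Hk1, the gene with the highest level per kilobase, the nearest were Rab11fip5 (0.0288), Scly (0.0295) and Cmip (0.0334), with a median of 0.0998. All profiles share the same libraries and their depth, and these distances are a description.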

How the data were processed

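RNA was sequenced from 8 samples of αTC1-6 cells, 4 per plasmid. As tools, the submitters' processing notes list fastp and kallisto with build GRCm39, without versions, and how transcripts were summed to genes is not given in the sources used here. The values are estimated counts per gene, as deposited by the authors, not scaled for depth, and were rounded to whole numbers. Libraries held 20679804 to 33347445 counts. A gene that shares sequence with others has a less certain count.

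Symbols and transcript lengths came from GENCODE release M21, an older build that matched 48327 of 75078 IDs (of the IDs of Aldoa, the one with more counts was used). The planned median coding transcript length proved to be that of partial models (581 bases for Hk1), so the longest was used.

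The filter was filterByExpr at a count of 10 and a total of 15, the scaling TMM, and the test the robust, two-sided quasi-likelihood test of edgeR 4.0.16 (glmQLFit, then glmQLFTest) in R 4.3.3, adjusted by Benjamini-Hochberg over 15916 genes with a threshold of 0.05. Standard errors are the size of the log2 fold change over the square root of F. Exact permutation tests used log2(CPM + 1) over 70 arrangements, with 0.0286 as the smallest p. Log2 CPM used a prior count of 2. The edgeR step was tested on simulated data. Beyond the set, Yy1, Gcg, up to 4 genes per list with the smallest p and the 3 nearest profiles were named. The genes of the set and the lists were chosen with earlier results of these data known. Alternatives were RLE, upper-quartile and no scaling, other filters, DESeq2 1.42.0, limma-voom 3.58.1, Yy1 left out, other lengths and each library left out. All replicate pairs within a group differed beyond sampling noise (chi-square per degree of freedom 2.85 to 12.3). The largest values were those of empty plasmid 33, at 8.19 with 31, 10.1 with 34 and 12.3 with 32. The other empty plasmid pairs lay between 4.03 and 6.38. Empty plasmid 33 also held the fewest counts of all libraries.

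Where a library shows no count of a gene, as many as 3 counts are allowed, which is 0.147 CPM at the lowest depth and 0.0903 CPM at the highest. These limits, and the intervals on summed counts, hold for counting error only.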

Additional observations from a re-analysis of the deposited data

Results flagged for a closer look

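In each group of 4 libraries, the library farthest from the others was compared with Dixon's critical value of 0.829 for the gap over the range. Chance flags about 1 in 20 groups, and 5 of the 76 groups examined were flagged. G6pc2 was low in empty plasmid 33, at 52.4 CPM, where the other 3 lay between 57.9 and 58.8 CPM. Eno2 at 613 CPM and Pdk1 at 159 CPM were high in empty plasmid 32, where the other 3 lay between 478 and 501 CPM for Eno2 and between 134.7 and 134.8 CPM for Pdk1. Mlxip was low in Yy1 plasmid 45, at 44.8 CPM against 49.2 to 49.8 CPM in the other 3, and Slc16a14 was high in empty plasmid 31, at 9.74 CPM against 8.62 to 8.70 CPM.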

How the results depend on the processing

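None of the 6 tested genes of the set was called under any alternative or with any library left out, and none of the 9 with no filter, the only setting that tested Slc2a2, Slc5a1 and Gckr. The 82 genes called over all tested genes became 174 with no filter on low counts and 54 with a filter of 1 CPM in 4 libraries, and 65 to 87 with 1 library left out. An unadjusted p under 0.05 was had by Slc2a3 with no filter (0.0228; edgeR adjusted p = 0.736), by Hk1 without empty plasmid 31 (0.0388) and by Slc2a1 without empty plasmid 33 (0.0175). With no filter Slc16a3 (-0.18), Eno2 (-0.17) and Adm (-0.37) were called lower. With 1 library left out, log2 fold changes ran from -0.198 to -0.017 for Slc2a1, from -0.152 to -0.0171 for Slc2a3, from -0.0251 to 0.0196 for Slc16a1, from -0.0964 to -0.0137 for Hk1, from 0.0206 to 0.0741 for G6pc2 and from -0.0064 to 0.0526 for G6pc3. The sign also turned for Gcg (-0.0076 to 0.0146), Hkdc1 (-0.245 to 0.0301), Mpc2 (-0.102 to 0.0379), Slc37a1 (-0.0349 to 0.0271), Slc37a3 (-0.0058 to 0.0436) and Slc5a4a (-0.204 to 0.356), none of them called. Slc16a1 was at 0.0019 with upper-quartile scaling and Slc37a1 at -0.0012 with library size alone. The other 305 values of single genes under other settings kept their direction and their side of the threshold. With the planned median length, that of partial models, levels per kilobase with the Yy1 plasmid were 535 for Hk1, 359 for Slc2a3 and 213 for Slc2a1. The cause of these changes was not tested. No paired analysis was possible because the groups share no sample numbers. Counts of Slc2a2, Slc5a1 and Gckr limit what could be detected.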
